A study of Mus musculus with 6 samples.

Results

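Both arms of 5 imprinted miRNA precursors, miR-296 and miR-298 of the Gnas region, miR-675 of H19, miR-483 of Igf2 and miR-335 of Mest, were followed in small RNA libraries of primary mouse peritubular myoid cells. These 10 mature miRNAs were 10 of the 1573 rows named as known mouse miRNAs, and were taken by name. mmu-miR-296-3p with mmu-miR-298-5p were chosen by their measured log2 fold change after endothelin-1 (ET1) in these same libraries. Their partner arms, mmu-miR-296-5p and mmu-miR-298-3p, came with those precursors, and the other arms were chosen for a precursor in an imprinted locus. Peritubular myoid cells are the contractile cells around the seminiferous tubules, here of the strain C57BL/6J, at the primary stage and grown in medium with fetal bovine serum. The groups were cells given 50 nM ET1 for 5 min, a peptide that contracts smooth muscle (n = 3 libraries), and untreated cells (n = 3 libraries). Whether libraries of a group came from separate cultures or animals was not stated, so p-values measure only how far these libraries differ among themselves, perhaps for technical reasons.

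At an imprinted locus, a gene is transcribed mainly from the copy inherited from a given parent, and a miRNA inside it follows the same parent. In mouse, miR-296 and miR-298 are expressed from the paternal copy, on the same strand as the Nespas antisense RNA of the Gnas region. miR-675 is cut from the maternally expressed RNA H19, while miR-483 and miR-335 lie in introns of the paternally expressed genes Igf2, a fetal growth factor, and Mest. Each precursor hairpin gives a 5p and a 3p arm, and pairing of the seed (bases 2 to 8 of the mature miRNA) with messenger RNA sets most of its targets.

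The mature sequences of the 10 arms are shown because both arms of a precursor are separate regulators with seeds of their own. They are from RefSeq, build GRCm38.p6, and the capitals mark the seed.
mmu-miR-296-5p: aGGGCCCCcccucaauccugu
mmu-miR-296-3p: gAGGGUUGgguggaggcucucc
mmu-miR-298-5p: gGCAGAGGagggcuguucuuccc
mmu-miR-298-3p: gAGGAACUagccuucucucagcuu
mmu-miR-675-5p: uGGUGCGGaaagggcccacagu
mmu-miR-675-3p: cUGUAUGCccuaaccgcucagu
mmu-miR-483-5p: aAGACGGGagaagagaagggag
mmu-miR-483-3p: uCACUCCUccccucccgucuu
mmu-miR-335-5p: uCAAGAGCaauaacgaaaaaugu
mmu-miR-335-3p: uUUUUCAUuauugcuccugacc
All 10 arms matched that table by name and had 10 different seeds. No other mature miRNA of the table with a row in these data had any of these seeds. Only 1340 of the 1573 known rows had a mature sequence for their first named miRNA, so this comparison is partial. The seed of miR-296-5p is made of G and C alone, and the miR-335 arms are the poorest in G and C.

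The hairpins of the Gnas region are shown with both mature arms in capitals, 5p first, because their arms differed in level.
Mir296: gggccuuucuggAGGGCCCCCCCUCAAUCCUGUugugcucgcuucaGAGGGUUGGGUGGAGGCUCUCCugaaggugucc
Mir298: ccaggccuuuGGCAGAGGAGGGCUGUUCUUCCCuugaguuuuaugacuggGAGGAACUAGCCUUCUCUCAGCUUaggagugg
Mir296 (chr2:174267047-174267125) and Mir298 (chr2:174267504-174267585) lie on the minus strand, 378 bases apart. Neither overlapped another gene in GENCODE M21, and the annotated end of Nespas, on the same strand, was 13651 bases away. Mir675 (chr7:142577064-142577147, minus strand) overlaps an exon of H19. Mir483 (chr7:142654924-142654996, minus strand) lies in an intron of Igf2, 77776 bases from Mir675. Mir335 (chr6:30741299-30741396, plus strand) lies in an intron of Mest.

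ET1 libraries held 18127265 to 19493731 tags in all and 4381927 to 4825429 tags of known miRNAs, and untreated libraries held 18972157 to 20895432 and 6240334 to 8651018. Known miRNAs made up 24.3% ± 1.53 of the ET1 tags and 38.2% ± 7.75 of the untreated tags, and rRNA fragments 9.44% ± 2.05 and 4.55% ± 1.22 (SD, n = 3 each). Levels below are CPM, counts scaled to 1000000 known miRNA tags with TMM factors, which corrects for differences in composition between libraries. The smooth muscle markers miR-143 and miR-145a, both arms of each, summed to 12964 to 15534 CPM in ET1 libraries and 20367 to 27744 CPM in untreated libraries. None of 3 tested passed. miR-143-3p made up most of it, with 10456 to 13423 CPM in ET1 libraries and 17741 to 25167 CPM in untreated libraries. The log2 fold changes were −0.93 for miR-143-3p, −1.75 for miR-145a-3p and −0.11 for miR-145a-5p. The 6 miRNAs listed as germ cell markers were miR-34c-5p, miR-449a-5p, miR-741-3p, miR-871-3p, miR-743a-3p and miR-470-5p. Which cells of these cultures they came from was not tested. They summed to 39620 to 76001 CPM in ET1 libraries and 35837 to 73323 CPM in untreated libraries, none of 6 tested passing. Most of this sum was miR-470-5p, with 34795 to 75129 CPM in ET1 libraries and 34500 to 72198 CPM in untreated libraries. The log2 fold changes of the 6 ran from −0.56 for miR-741-3p to 2.20 for miR-871-3p. The groups overlapped for miR-871-3p, with 4443, 149 and 1170 CPM in ET1 libraries and 884, 185 and 184 CPM in untreated libraries. Of markers of other cells, 1 of 2 endothelial arms, miR-126a-3p, fell. Endothelial sums were 114 to 163 CPM in ET1 libraries and 1107 to 1883 CPM in untreated libraries. miR-126a-5p was also lower but not called, with a log2 fold change of −2.01. Its means were 1.52 CPM in ET1 libraries and 6.19 CPM in untreated libraries. Likewise 1 of 2 tested leukocyte miRNAs, miR-150-5p, fell. Leukocyte sums were 36.3 to 40.6 CPM in ET1 libraries and 236 to 323 CPM in untreated libraries. The other, miR-223-3p, was not called and had a log2 fold change of 0.29, and miR-142a-3p and miR-142a-5p had at most 14 counts in a library. Of 2 tested red cell rows 1, miR-486a-5p with miR-486b-5p, rose. Red cell sums were 444 to 1323 CPM in ET1 libraries and 143 to 915 CPM in untreated libraries. The other, miR-451a, was not called and had a log2 fold change of −0.56. Epithelial markers, at 75.1 to 129 CPM in ET1 libraries and 109.9 to 343 CPM in untreated libraries, and Sertoli and gonad markers, at 621 to 1905 CPM in ET1 libraries and 918 to 1389 CPM in untreated libraries, had no member past the threshold, and no listed marker was at 0 in all libraries. The part of these differences in the results below was not tested, and in RNA from whole cultures fewer cells of a type and less RNA per cell cannot be told apart.

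These libraries did not settle whether the imprinted precursors share a direction. miR-298-5p and miR-296-3p were higher in ET1 libraries, miR-296-5p overlapped between groups, miR-483-5p had lower values in ET1 libraries without passing the test, and miR-675 and miR-335 were at the limit of counting. Over all libraries the levels ran from miR-296-5p (mean of 968 CPM, the 76th of the known miRNAs) through miR-296-3p (115 CPM, 176th), miR-298-5p (80.4 CPM, 195th) and miR-483-5p (15.1 CPM, 363rd) to miR-298-3p (1.31 CPM) and miR-675-3p (0.774 CPM). miR-483-3p (0.646 CPM), miR-335-5p (0.172 CPM), miR-335-3p (0.129 CPM) and miR-675-5p (0 counts) followed. The members are 21 to 24 bases long and were counted as whole tags, so no length correction applies. Neighbours in this order from miR-298-3p downwards did not differ beyond their spread. The ranges of miR-296-3p and miR-298-5p overlapped in ET1 libraries, and those of miR-298-5p and miR-483-5p in untreated libraries. Within each of the 6 libraries, however, miR-296-3p was above miR-298-5p and miR-298-5p above miR-483-5p. The expression filter was passed by 4 of the 10 arms, miR-296-3p, miR-296-5p, miR-298-5p and miR-483-5p.

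**Figure D1:**
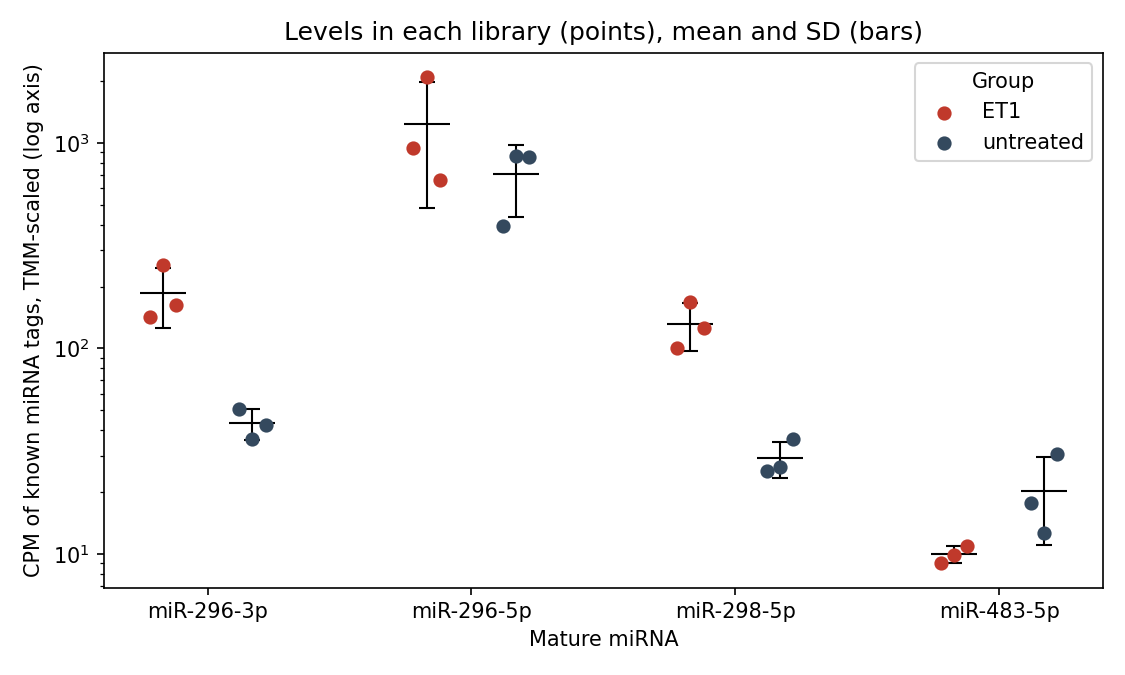
Level of the 4 arms that passed the expression filter, in TMM-scaled CPM of known miRNA tags on a log axis, with ET1 libraries in red and untreated libraries in dark blue. Points are libraries and bars the mean and SD of 3. The groups are apart for miR-298-5p, miR-296-3p and miR-483-5p and overlap for miR-296-5p.

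miR-296-3p, the less abundant arm of its hairpin, had 142, 254 and 162 CPM in ET1 libraries 1, 2 and 3, against 50.9, 36.1 and 42.4 CPM in untreated libraries. All ET1 libraries lay above all untreated libraries. The means were 186 ± 59.7 CPM in ET1 libraries and 43.2 ± 7.42 CPM in untreated libraries (SD, n = 3 each), a fold of 4.31 (log2 fold change 2.11, SE 0.43).

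miR-298-5p, the main arm of its hairpin and a miRNA known to target the β-secretase Bace1, had 100.5 CPM in ET1 library 1, 168 CPM in ET1 library 2 and 126 CPM in ET1 library 3. Untreated libraries had 25.4, 26.6 and 36.1 CPM, so here too the groups did not overlap. The means were 131 ± 34.1 CPM in ET1 libraries and 29.4 ± 5.85 CPM in untreated libraries, a fold of 4.48 (log2 fold change 2.16, SE 0.44).

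Both were among the 8 miRNAs called higher of 616 tested (edgeR, Benjamini-Hochberg threshold 0.05; 1.3% called higher). Since these values chose them, they are a description and not a test. The groups did not overlap either by library size alone or in the deposited RPM (reads scaled to 1000000 tags of all kinds), where miR-296-3p had 41.65, 61.81 and 47.35 in ET1 libraries against 17.26, 13.44 and 12.22 in untreated libraries. In TMM-scaled CPM, groups apart in this direction were found for 12.5% of the tested miRNAs. That share was not computed for library size alone or for the RPM. Without ET1 library 2, ET1 library 3 or untreated library 2 neither arm was past the threshold, nor was miR-298-5p without untreated library 1; the log2 fold changes with 1 library left out ran from 1.79 to 2.26 for miR-296-3p and from 1.93 to 2.36 for miR-298-5p.

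The ratio of miR-298-5p to miR-296-3p overlapped between the groups. The miR-298-5p count divided by that of miR-296-3p was 0.708, 0.661 and 0.778 in ET1 libraries against 0.499, 0.737 and 0.850 in untreated libraries. The means were 0.716 ± 0.0587 in ET1 libraries and 0.695 ± 0.179 in untreated libraries (SD, n = 3 each), and the untreated range held that of ET1. This ratio needs no scaling between libraries. With each group's mean removed, the log2 levels of miR-298-5p and miR-296-3p had a Pearson r of 0.64 over the 6 libraries. The r was 0.34 between the arms of miR-296, 0.67 between miR-298-5p and miR-296-5p, and 0.57 between miR-298-5p and miR-483-5p of another locus. Of the other 614 tested miRNAs, 8.47% had an r with miR-296-3p at least as high as 0.64, and 19.5% had one with miR-298-5p. These values are a description, since the points share their libraries and depth.

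miR-296-5p is the main arm of its hairpin and is known from human endothelial cells, where growth factors induce it. It had 948, 2084 and 663 CPM in ET1 libraries, against 394, 866 and 853 CPM in untreated libraries. The groups overlapped, with ET1 library 3 below untreated libraries 2 and 3. The means were 1232 ± 752 CPM in ET1 libraries and 704 ± 269 CPM in untreated libraries. The difference was within the spread (log2 fold change 0.81, SE 0.47). Without ET1 library 2, which was the highest, the log2 fold change was 0.18.

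The 3p arm made up 13.03%, 10.9% and 19.6% of the miR-296 tags in ET1 libraries 1, 2 and 3, against 11.4%, 4.004% and 4.74% in untreated libraries. Here untreated library 1 lay above ET1 library 2, so the arm share did not separate the groups as the level of the 3p arm did (14.5% ± 4.57 in ET1 libraries and 6.73% ± 4.10 in untreated libraries; SD, n = 3 each). The log2 fold change of the 3p arm exceeded that of the 5p arm by 1.30. Since the fold change of the 3p arm chose it, nothing is read from the size of this difference.

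**Figure D2:**
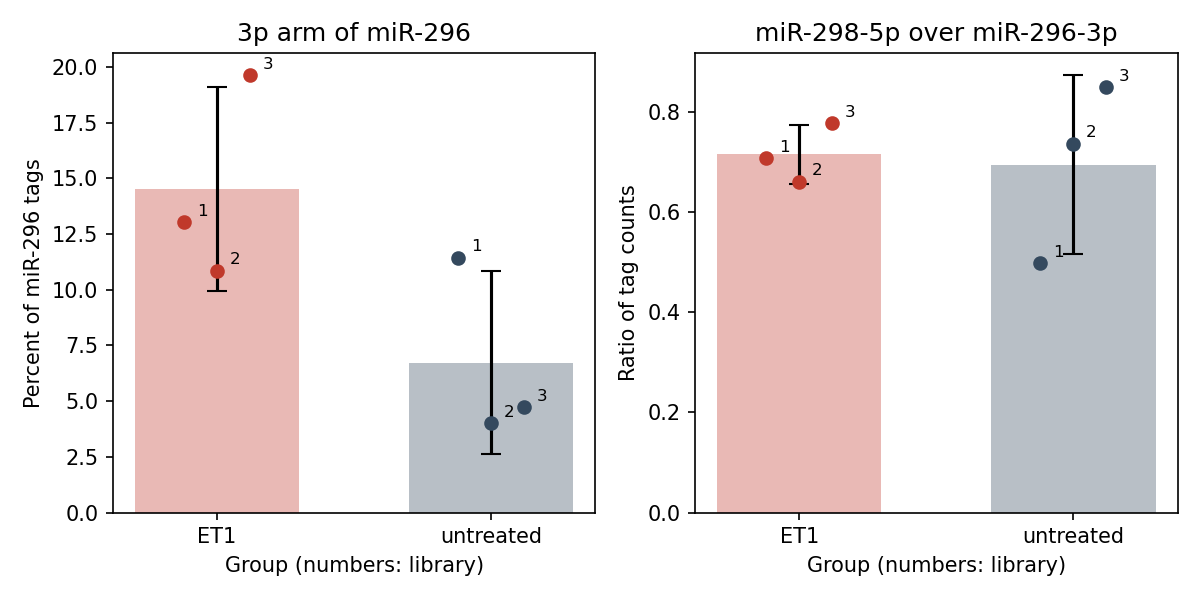
Share of miR-296 tags that came from the 3p arm, in percent (left), and the ratio of miR-298-5p to miR-296-3p tag counts (right), for ET1 and untreated libraries. Points are libraries with their numbers, bars the mean and SD of 3; the arm share of untreated library 1, 11.4%, lies above that of ET1 library 2, 10.9%, and the ratios overlap.

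miR-298-3p, the passenger arm, had 12, 5 and 5 counts in ET1 libraries and 4, 17 and 4 counts in untreated libraries. The groups overlapped. It was below the expression filter. In a fit without the filter its log2 fold change was 0.13 (SE 0.85). The 5p arm held 98.9% of the pooled miR-298 tags of ET1 libraries and 95.9% of those of untreated libraries.

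The GC content of the mature sequence moved with the fold change over all tested miRNAs. The arms of the Gnas hairpins that passed the filter were rich in GC, with 68.2% in miR-296-3p, 66.7% in miR-296-5p and 65.2% in miR-298-5p, against a median of 52.2% over the 514 tested miRNAs with a sequence. Other tested miRNAs with at least 65% GC had a median log2 fold change of 0.56 (n = 70, 55 of them positive). Those under 45% GC had a median of −0.33 (n = 128, 47 positive). With a correction for this trend, the log2 fold changes were 1.44 for miR-296-3p, 1.67 for miR-298-5p and 0.23 for miR-296-5p. In that fit, which has no replicate block, miR-296-3p was no longer past the threshold and miR-298-5p was. This is a description, since their fold changes chose them. miR-483-5p, with 54.5% GC, had −1.02 with and without the correction.

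**Figure D3:**
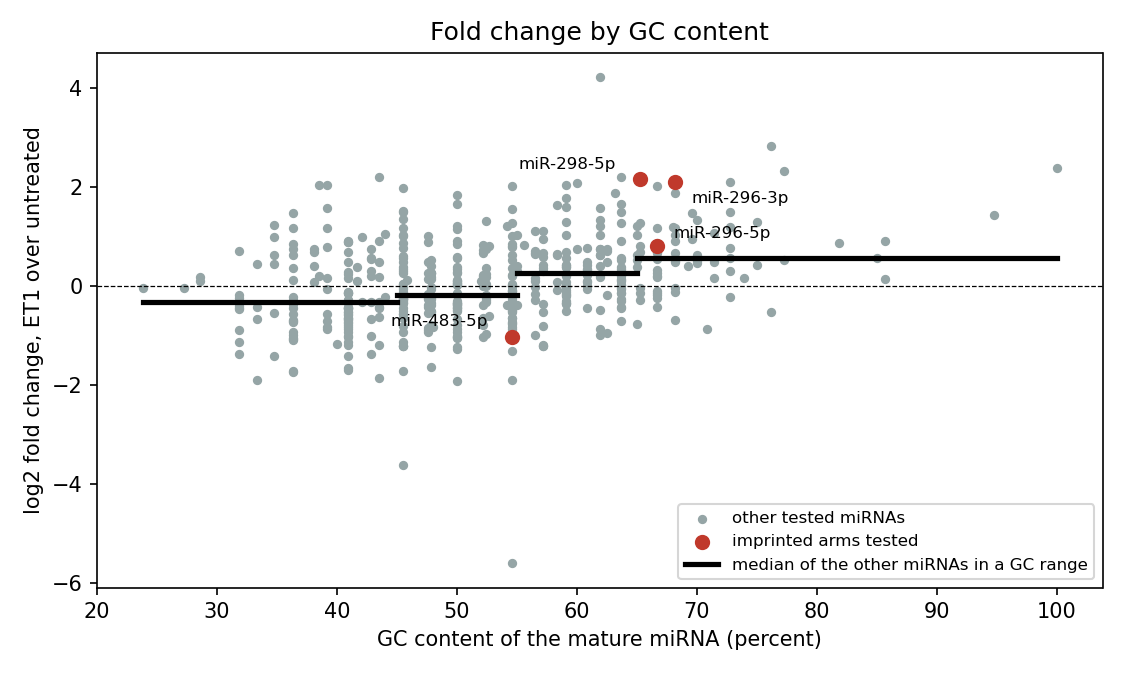
Log2 fold change of ET1 over untreated (vertical axis) against the GC content of the mature miRNA in percent, for the 514 tested miRNAs with a sequence. Red points are the 4 tested imprinted arms, and black lines the medians of the other miRNAs in 4 GC ranges, from −0.33 under 45% to 0.56 at 65% or more.

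miR-483-5p, the main arm of the hairpin in the Igf2 intron, had 9.02, 9.93 and 10.9 CPM in ET1 libraries, against 17.6, 12.6 and 30.5 CPM in untreated libraries. All ET1 libraries lay below all untreated libraries, but by library size alone the groups overlapped. The deposited RPM was 2.64, 2.42 and 3.18 in ET1 libraries against 5.98, 4.69 and 8.79 in untreated libraries. This RPM is over tags of all kinds. It sets miRNAs lower in ET1 libraries, where known miRNAs were a smaller share (24.3% against 38.2%). The means were 9.94 ± 0.933 CPM in ET1 libraries and 20.3 ± 9.25 CPM in untreated libraries (SD, n = 3 each). The difference did not pass the test across all miRNAs (edgeR adjusted p = 0.26, log2 fold change −1.02, SE 0.47), and without untreated library 3, the highest, it was −0.59. In TMM-scaled CPM, groups apart with ET1 lower were found for 11% of the tested miRNAs, and 0.487% were called lower.

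miR-483-3p, which in human and rodent fat cells represses the growth factor GDF3, had 0, 5 and 2 counts in ET1 libraries and 7, 1 and 8 counts in untreated libraries. The groups overlapped, and without the filter its log2 fold change was −0.85 (SE 1.18; edgeR adjusted p = 0.75). The 5p arm held 95.7% of the pooled miR-483 tags of ET1 libraries and 96.1% of those of untreated libraries.

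miR-675, which in mouse placenta restrains growth through the receptor Igf1r, was barely counted in these cells. miR-675-3p had 7, 0 and 6 counts in ET1 libraries and 5, 4 and 6 counts in untreated libraries, or 0.789 ± 0.696 CPM in ET1 libraries and 0.759 ± 0.225 CPM in untreated libraries (SD, n = 3 each). No difference was detectable at this depth (log2 fold change 0.038, SE 1.06, in the fit without a filter; edgeR adjusted p = 0.98). miR-675-5p had 0 counts in all libraries, which allows up to 0.217 per 1000000 known miRNA tags over the ET1 libraries and 0.130 over the untreated libraries (3 counts of the pooled tags, counting error only).

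miR-335, known from human breast cancer cells as a suppressor of metastasis, was at or near 0 in all libraries; its host gene Mest is named for its expression in mesoderm. miR-335-5p had 1, 4 and 0 counts in ET1 libraries and 0 counts in each untreated library, which allows up to 0.130 per 1000000 known miRNA tags over the untreated libraries. miR-335-3p had 0, 3 and 0 counts in ET1 libraries and 1, 0 and 0 counts in untreated libraries. Of the 9 tags of miR-335, 7 were in ET1 library 2, and no fold is given at this depth.

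The authors' deposited table compared pooled counts, with no term for the spread between libraries. There miR-335-5p was listed with a log2 ratio of ET1 over untreated of 4.02 and a q-value of 0.00513, from 5 pooled ET1 reads and 0 pooled untreated reads. In the authors' deposited table miR-483-5p had a log2 ratio of −0.64 (q-value 3.75e-07). It gave miR-298-5p 2.51, miR-296-3p 2.43 and miR-296-5p 1.11 in the authors' deposited table, each with a q-value written as 0. For the 8 arms with reads in both groups, the authors' deposited ratio was 0.697 above the log2 ratio of their pooled counts.

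Large imprinted miRNA clusters elsewhere in the genome were set beside these loci. Of the maternally expressed Dlk1-Dio3 cluster, 70 of 107 mature miRNAs were tested; 3 rose, none fell in edgeR, 58 log2 fold changes were positive and the median was 0.75. Over all 616 tested miRNAs edgeR called 1.79% (1.3% higher and 0.487% lower), 311 log2 fold changes were positive and the median was 0.0058. At an unadjusted edgeR p under 0.05, 22 of the 70 were higher and 1 lower, against 9.42% higher and 8.93% lower over all tested miRNAs. DESeq2 called 12 of the 70, against 6.33% over all, and limma-voom called 0, against 0.812%. miR-127-3p, the most abundant of the cluster, averaged 8710 ± 3801 CPM in ET1 libraries and 9714 ± 578 CPM in untreated libraries (edgeR adjusted p = 0.86, log2 fold change −0.16). Those called higher were miR-3072-5p (log2 fold change 2.33), miR-540-3p (2.09) and miR-433-3p (1.56).

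In the Sfmbt2 cluster, a paternally expressed block of miR-297, miR-466, miR-467 and miR-669 copies on chromosome 2, 32 of 52 rows were tested and none was called by edgeR, DESeq2 or limma-voom. Over all tested miRNAs these tools called 1.79% (edgeR), 6.33% (DESeq2) and 0.812% (limma-voom). None of the 32 had an unadjusted edgeR p under 0.05, against 18.3% over all. Of these rows 12 had positive values, against 311 of all 616 tested miRNAs, and the median log2 fold change was −0.14. Rows of this cluster share near-identical sequences, so single rows are uncertain. Its most abundant row, miR-467d-5p, averaged 402 ± 107 CPM in ET1 libraries and 367 ± 68.7 CPM in untreated libraries (edgeR adjusted p = 0.88).

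**Figure D4:**
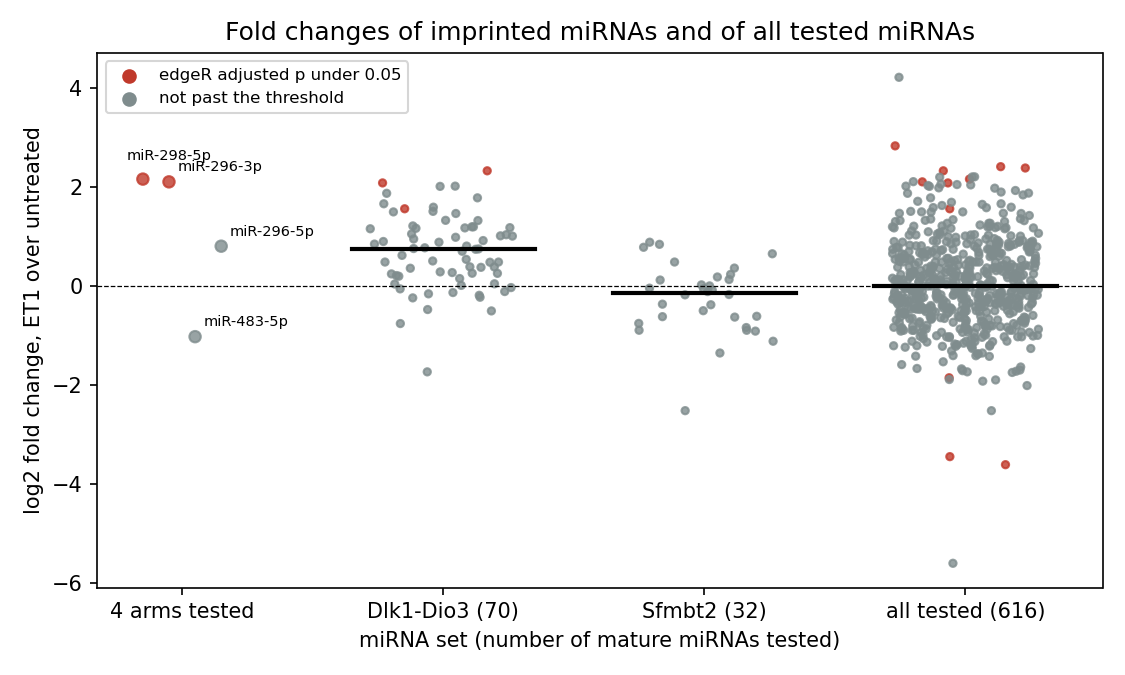
Log2 fold change of ET1 over untreated for the 4 tested imprinted arms, the Dlk1-Dio3 cluster, the Sfmbt2 cluster and all tested miRNAs, with edgeR calls in red and black lines at the medians. The Dlk1-Dio3 median is 0.75, the Sfmbt2 median −0.14 and that of all 616 is 0.0058.

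The tested miRNAs whose levels most resembled those of miR-298-5p and miR-296-3p within groups were miR-504-3p (Pearson r of 0.98), miR-29c-3p (0.97), miR-744-5p (0.97), miR-328-5p (0.97) and miR-1970c-5p (0.96). The r is between group-centred log2 levels and the mean of the pair over 6 libraries, is a description, and these were the 5 highest of 613 computed. None of the 5 passed the test between groups, and their log2 fold changes ran from −0.87 for miR-328-5p to 2.06 for miR-504-3p (edgeR adjusted p = 0.82 and 0.091).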

How the data were processed

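Libraries followed the BGI small RNA protocol on TRNzol RNA, per the labels' protocols; Bowtie2 and mm10 are named per the submitters' processing notes, while annotation databases and multi-mapping rules are not given in the sources used here. Per the file headers, the authors deposited raw tag counts for 61628 rows, of which 1573 are known miRNAs, and a second column headed TPM. From the values, that deposited column is an RPM over all rows, with a count of 0 written as 0.001. The authors' deposited comparison gives pooled counts, a log2 ratio, p-values and q-values without settings. The 4 rows for exons, introns, intergenic sequence and repeats entered no fit.

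Counts of known miRNAs were fitted in edgeR 4.0.16 (R 4.3.3) with TMM scaling, the default expression filter, a robust quasi-likelihood model of the group alone, and Benjamini-Hochberg adjustment over all 616 tested. The scripts were tested on simulated data. SE is the log2 fold change divided by the root of the F statistic. CPM uses known miRNA tags times the TMM factor. Alternatives were DESeq2 1.42.0 (size factors and test), limma-voom (limma 3.58.1), library size alone, all rows together, other filters, the share of known miRNA tags as a covariate, a loess on mature GC content as offset, a replicate block and leaving out each library. GC ranges were chosen after seeing the data.

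The members and lists were chosen with earlier results of these data known. Named are the 10 arms, up to 3 called in each direction and the most abundant of each cluster, 5 miRNAs by likeness, and cell type markers. Cluster membership is by precursor position, between Dlk1 and Dio3 or within Sfmbt2, in RefSeq GRCm38.p6; a row counts if any copy lies there.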

Additional observations from a re-analysis of the deposited data

How the results depend on the processing

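miR-296-3p, miR-298-5p and miR-296-5p kept positive and miR-483-5p kept negative log2 fold changes in each of 17 alternatives, from 1.44 to 2.46, from 1.65 to 2.51, from 0.16 to 1.14 and from −2.05 to −0.59; miR-296-5p and miR-483-5p passed the threshold in none of them. The lowest miR-483-5p value came with the share of known miRNA tags as a covariate, where miR-296-3p and miR-298-5p were at 1.76 and 1.65 and not past the threshold, nor with all small RNA rows together (1.64 and 1.73). The 11 calls over all 616 tested miRNAs became 41 with library size alone, 39 in DESeq2 and 5 in limma-voom. They became 0 with all rows together (116 at an unadjusted p under 0.05) and 0 with the covariate (39 unadjusted). Without a filter there were 37 calls of 1368 tested. The GC offset gave 8 of 514 tested, and at least 10 CPM in 3 libraries gave 10 of 404. Leaving out 1 library gave 2 to 30 calls: 30 without ET1 library 1, 2 without ET1 library 3, 5 without untreated library 2 and 25 without untreated library 3. The cause was not tested. Calls in the Dlk1-Dio3 and Sfmbt2 clusters, 3 in all, were 14 with library size alone, 0 with all rows together, with the covariate and in limma-voom, 9 without a filter, 12 in DESeq2, 4 with the GC offset, 2 with at least 10 CPM in 3 libraries and 0 to 4 with 1 library left out. Library size alone moved the median of all tested miRNAs to 0.37, and all rows together to −0.46. No label says that shared replicate numbers pair the libraries. Same-numbered libraries had correlations of their deviations from group means of 0.28, 0.06 and 0.25, and each library correlated best with its own number, a hint from the data and not the design. With a replicate block there were 21 calls, 6 of them in the clusters, and with the block and the GC offset 51 and 15. miR-296-3p was not past the threshold with the GC offset alone (1.44) and was past it with the block and the GC offset (1.45). Since its fold change chose it, neither outcome is a test. Depth limits miR-675, miR-335, miR-298-3p and miR-483-3p, whose libraries held at most 17 tags.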
